A study of Fragaria vesca with 3 samples.

Results

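Binding of FvSEP3 was examined at 5 genes of red pigment formation in woodland strawberry (Fragaria vesca), taken by their gene identifiers from the deposited peak lists. Along the pathway they were FvH4_2g02110 (chalcone synthase), FvH4_2g10240 (flavonoid 3'-monooxygenase-like), FvH4_6g45521 (dihydroflavonol-4-reductase-like), FvH4_6g39310 (anthocyanidin 3-O-glucosyltransferase 2-like) and FvH4_2g30320 (MYB10-2). They are 5 of the 18238 genes to which the lists assigned any peak, and they held 4 of the 19298 peaks of immunoprecipitation (IP) replicate 1, 7 of the 21823 peaks of IP replicate 2 and 4 of the 13283 peaks of the authors' merged list. The assay was DNA affinity purification sequencing, in which a transcription factor captures fragments of purified genomic DNA. The DNA of all 3 samples came from wild-type fruit at 30 days post anthesis, and the samples were 2 IP replicates with FvSEP3 and 1 input library. Such DNA is stripped of chromatin proteins, so a peak records what FvSEP3 can bind and not what it occupies in the fruit. Sequencing depth is unknown, since the lists hold no read counts, and nothing in the labels says that the replicates came from separate plants beyond naming them biological replicates.

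Anthocyanins, the red pigments of strawberry fruit, are built from phenylalanine through the general phenylpropanoid steps and then the flavonoid branch. Chalcone synthase makes the first flavonoid skeleton, flavonoid 3'-monooxygenase adds a hydroxyl group to a ring of that skeleton, dihydroflavonol 4-reductase leads toward the colourless leucoanthocyanidins, and a 3-O-glucosyltransferase adds the sugar that makes the pigment stable. MYB10 proteins are R2R3-MYB transcription factors that switch on these genes in fruit of the rose family. SEPALLATA proteins, to which FvSEP3 belongs by name, are MADS-domain factors known for their part in flower and fruit development.

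FvSEP3 peaks overlapped between the replicates at 3 of the 5 genes, namely the chalcone synthase, the flavonoid 3'-monooxygenase-like gene and the anthocyanidin 3-O-glucosyltransferase. Among all 18238 genes with any peak the share was 58.6%, so this count stood near the background. The same 3 genes stood in the merged list, against 58.3% of all genes with any peak. The dihydroflavonol-4-reductase-like gene and MYB10-2 had peaks in replicate 2 alone, as did 22.4% of all genes with any peak. Replicate 1 thus had a peak at 3 of the 5 genes (77.6% of all) and replicate 2 at all 5 (85.2% of all). A promoter peak, placed from 2000 bp upstream of the gene start to the start itself, was found in both replicates at 2 of the 5 genes, the flavonoid 3'-monooxygenase-like gene and the glucosyltransferase, against 13.4% of all genes with any peak. Taken singly, replicate 1 had a promoter peak at 2 of the 5 (21.0% of all) and replicate 2 at 3 of the 5 (23.4% of all). With 5 genes chosen with results of these data known, no test was made of this difference. All 4 peaks of the 5 genes in replicate 1 overlapped a replicate 2 peak, against 70.5% of the whole replicate 1 list, and 4 of the 7 in replicate 2 overlapped a replicate 1 peak, against 62.0% of the whole replicate 2 list.

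**Figure D1:**
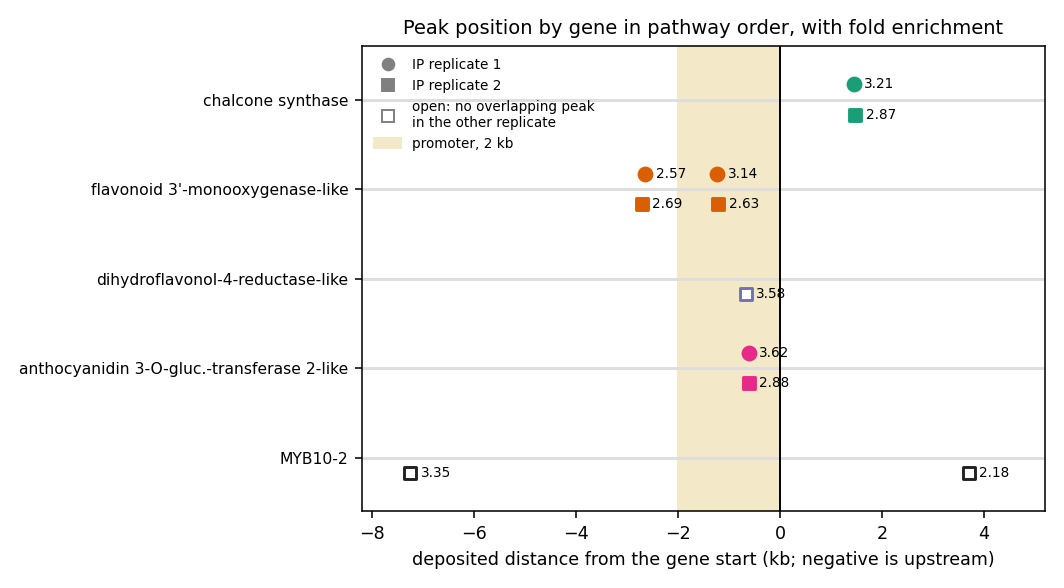
Deposited distance of each peak from the start of its gene (horizontal axis, kb, negative upstream) for the 5 genes in pathway order, with circles for IP replicate 1, squares for IP replicate 2 and the fold enrichment printed beside each peak. Filled symbols overlap a peak of the other replicate, and the open ones, all in replicate 2, are the dihydroflavonol-4-reductase-like promoter peak at 3.58 and both MYB10-2 peaks.

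Chalcone synthase, the entry enzyme of flavonoid synthesis, carried its single peak inside the gene, in exon 2 of 2, and none upstream. In replicate 1 the peak lay on chromosome 2 from 1766157 to 1766419, 1443 bp downstream of the gene start, and reached a fold enrichment of 3.21. Fold enrichment is the authors' own value for a peak, its signal over the background of the peak caller. In replicate 2 the peak ran from 1766180 to 1766399, at 1479 bp, with 2.87. The replicate 2 interval lay wholly within the replicate 1 interval, and the values averaged 3.04 ± 0.239 (SD, n = 2). Within its own list the peak exceeded 60.8% of peaks in replicate 1 and 40.02% in replicate 2, so it was a mid-range peak in both. Exons held 26.1% of all shared peaks of replicate 1, the largest of the 8 position classes. The nearest other peaks lay 6059 bp away in replicate 1 and 6986 bp away in replicate 2, both assigned to neighbouring genes.

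The flavonoid 3'-monooxygenase-like gene FvH4_2g10240 was the only one of the 5 with more than 1 shared peak. Its promoter peak lay on chromosome 2 from 9082936 to 9083229 in replicate 1, 1227 bp upstream of the gene start, and its fold enrichment was 3.14. In replicate 2 it lay from 9082960 to 9083210, at 1207 bp upstream, with 2.63. The pair averaged 2.89 ± 0.361 (SD, n = 2), and the replicate 2 interval was again contained in that of replicate 1. The peak exceeded 56.3% of the replicate 1 list but 23.4% of the replicate 2 list.

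The other shared peak assigned to this gene lay inside its neighbour, in intron 2 of 3 of FvH4_2g10241. It had a fold enrichment of 2.57 in replicate 1, from 9084446 to 9084666, and of 2.69 in replicate 2, from 9084467 to 9084729, with a mean of 2.63 ± 0.0824 (SD, n = 2). This was the weakest of the 4 shared peaks, above 17.0% of the replicate 1 list and 26.7% of the replicate 2 list. Both gene models carry the same description and the same protein identifier in the lists. The order of their peaks and deposited distances places both on the minus strand, with starts near 9081860 for FvH4_2g10240 and 9087426 for FvH4_2g10241, so the peaks inside the neighbour lie upstream of FvH4_2g10240.

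FvH4_2g10241 had stronger peaks than FvH4_2g10240. Its shared peak in intron 1 of 3 reached 3.47 in replicate 1 and 3.56 in replicate 2, and a further peak in intron 2, in replicate 2 alone, reached 3.48. The pair of genes thus held 3 peaks within 3.716 kb in replicate 1, all shared, and 4 peaks within 3.643 kb in replicate 2, of which 3 were shared. Around the intron 2 peak assigned to FvH4_2g10240 each list held 5 peaks within 10 kb on either side, itself included, against a median of 3 around the peaks of either whole list. The sequences of these gene models were not compared. No source used here says how reads that match both would have been placed, so the division of signal between the models is uncertain.

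The dihydroflavonol-4-reductase-like gene FvH4_6g45521 had a promoter peak in replicate 2 alone. It lay on chromosome 6 from 34933019 to 34933236, 669 bp upstream of the gene start, and reached 3.58-fold enrichment at a −log10 q of 15.4. It was the strongest of the 7 peaks in that replicate and exceeded 82.8% of the replicate 2 list. Replicate 1 had no peak assigned to this gene, and its nearest peak lay 5417 bp away, assigned to FvH4_6g45510 with a fold enrichment of 3.93. Of the other 216 replicate 2 peaks in the promoter within 1 kb and within 0.1 of its fold enrichment, 171 (79.2%) overlapped a replicate 1 peak. Among the 8284 replicate 2 peaks without an overlapping replicate 1 peak, 9.80% were as strong or stronger. The peak was not in the authors' merged list.

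The gene FvH4_6g39310, described as like a glucosyltransferase of the last of these steps, had a promoter peak in both replicates. Of the 4 shared peaks it had the closest agreement in deposited distance from the gene start and the widest gap in strength. Replicate 1 placed it on chromosome 6 from 31058548 to 31058868, 605 bp upstream of the gene start, at an enrichment of 3.62. Replicate 2 placed it from 31058543 to 31058846, 606 bp upstream, with 2.88. The deposited distances differed by 1 bp, against a median of 35 bp over the 13348 shared pairs assigned to the same transcript. For the other 3 shared peaks of the 5 genes the distances differed by 20 bp at the flavonoid 3'-monooxygenase-like promoter, 36 bp at the chalcone synthase and 68 bp at the FvH4_2g10241 intron. The fold enrichment averaged 3.25 ± 0.523 (SD, n = 2), and the difference of 0.74 between replicates was larger than in 83.9% of all 13665 overlapping pairs. The peak exceeded 82.7% of the replicate 1 list and 40.5% of the replicate 2 list.

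A neighbouring gene with nearly the same description, FvH4_6g39311, had 2 shared peaks. At its gene start, 21 bp downstream in replicate 1 and 26 bp upstream in replicate 2, it reached 4.06 in replicate 1 and 3.48 in replicate 2, above the FvH4_6g39310 promoter peak in both lists. Further upstream, at 3838 bp in replicate 1 and 3913 bp in replicate 2, it reached 3.44 and 3.74, below that promoter peak in replicate 1 and above it in replicate 2. A peak in replicate 2 alone, 10587 bp upstream, had the highest fold enrichment assigned to any gene of the pathway list described below, 4.72.

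FvH4_2g30320, the gene described as MYB10-2, had no peak in its promoter or gene body in either list. Both of its peaks were intergenic and came from replicate 2. The stronger lay 7250 bp upstream of the gene start, on chromosome 2 from 23460982 to 23461196, and its fold enrichment of 3.35 was above 72.3% of that list. The weaker lay 3701 bp downstream of the start, from 23449762 to 23450229, and its fold enrichment of 2.18 was above 2.87% of the list. The order of these distances places the gene on the minus strand. Replicate 1 had 0 peaks within 10 kb of the midpoint of either, and its nearest peak lay 16683 bp from the stronger and 27650 bp from the weaker. Of other intergenic replicate 2 peaks within 0.1 of the same fold enrichment, 343 of 512 (67.0%) overlapped a replicate 1 peak for the stronger, and 90 of 226 (39.8%) for the weaker. The description of this gene was taken by the authors from a protein of the cultivated strawberry, Fragaria x ananassa. Whether the gene regulates pigment in woodland strawberry fruit was not tested.

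**Figure D2:**
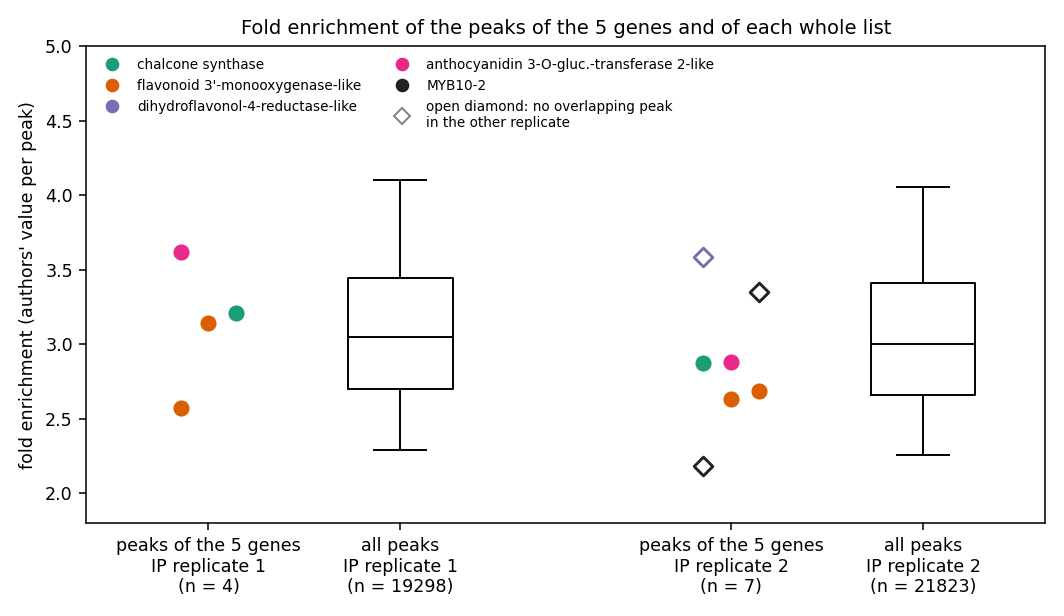
Fold enrichment (vertical axis, the authors' value per peak) of each peak of the 5 genes, left of a box with the quartiles and 5th to 95th percentiles of all peaks of the same replicate. Filled circles overlap a peak of the other replicate and open diamonds do not. In replicate 2 the strongest peaks of the 5 genes, at 3.58 and 3.35, are open, and all 4 filled ones lie below that list's median of 3.004.

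None of the 4 shared peaks reached the median fold enrichment of both lists, 3.05 in replicate 1 and 3.004 in replicate 2. The chalcone synthase peak, the flavonoid 3'-monooxygenase-like promoter peak and the glucosyltransferase peak were above the median in replicate 1 and below it in replicate 2, and the FvH4_2g10241 intron peak was below it in both. Of all 13665 overlapping pairs, 40.7% were at or above the median in both lists and 27.9% in neither. Accordingly, 0 of the 5 genes kept a shared peak among peaks of at least the median, against 27.3% of all genes with any peak, and 0 of the 5 at a −log10 q of at least 10, against 26.1%. The glucosyltransferase missed the latter by little, with 15.7 in replicate 1 and 9.96 in replicate 2. The −log10 q was 9.57 in replicate 1 and 8.03 in replicate 2 for the chalcone synthase, and 9.10 and 6.39 for the flavonoid 3'-monooxygenase-like promoter.

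**Figure D3:**
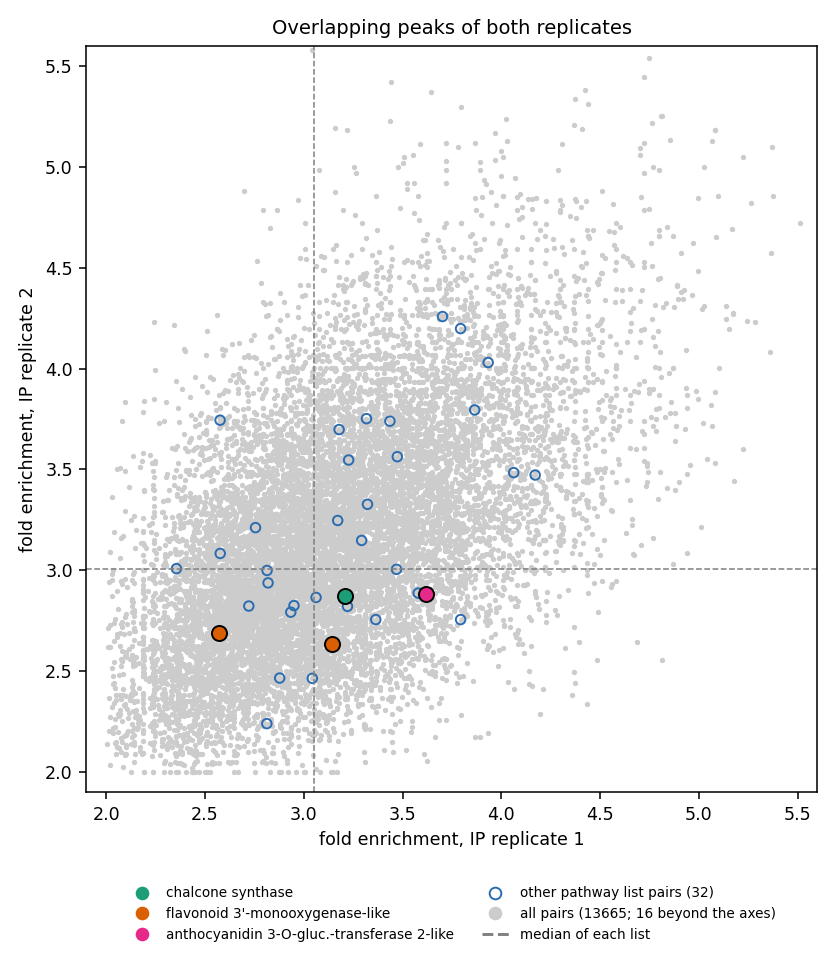
Fold enrichment of overlapping peaks in IP replicate 1 (horizontal axis) and IP replicate 2 (vertical axis), with the shared peaks of the 5 genes in colour, the 32 pairs of other pathway genes as open circles, all 13665 pairs in grey (16 lie beyond the axes) and dashed lines at the median of each list. The 4 coloured points all lie below the replicate 2 median.

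The wider pathway was described with a list of genes matched by words in their descriptions, from phenylalanine ammonia-lyase to the MYB regulators. It held 42 genes with any peak beside the 5, and 26 of the 42 (61.9%) had overlapping peaks in both replicates, against 58.6% of all genes with any peak. A promoter peak shared by the replicates was present at 3 of the 42 (7.14%), against 13.4%. These were FvH4_6g01170 (MYB90-like) at 2.91 ± 0.130 (SD, n = 2) and 2 genes described as TRANSPARENT TESTA 12-like, after a transporter of flavonoids into the vacuole in Arabidopsis, FvH4_6g37810 at 3.21 ± 0.0528 (SD, n = 2) and FvH4_7g30023. The last was unequal, with 2.58 in replicate 1 and 3.74 in replicate 2. A description is a sequence match, so a listed gene need not act in anthocyanin synthesis.

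At the head of the pathway the phenylalanine ammonia-lyase 1 gene FvH4_6g16060, whose enzyme opens phenylpropanoid synthesis, had a 5' UTR peak of 3.93 in replicate 1 and 4.03 in replicate 2. This was higher in both lists than any shared peak of the 5 genes. Of 4 genes described as 4-coumarate--CoA ligase-like, after the enzyme that supplies the substrate of chalcone synthase, 3 had shared peaks. The strongest, assigned to FvH4_5g23550 at 3.996 ± 0.286 (SD, n = 2), lay in exon 11 of 11 of the neighbouring FvH4_5g23560. FvH4_7g33990 had a 5' UTR peak at 3.39 ± 0.226 (SD, n = 2) and a weaker intron peak, and FvH4_4g24170 had an intergenic one at 2.68 ± 0.461 (SD, n = 2).

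In the flavonoid branch 3 of 5 genes described as flavonol synthase or flavanone 3-hydroxylase had shared peaks. FvH4_5g20432 led with an intron peak at 3.82 ± 0.495 (SD, n = 2), followed by FvH4_5g20430 in an exon at 3.24 ± 0.329 (SD, n = 2) and FvH4_7g10321 in an intergenic position at 3.02 ± 0.283 (SD, n = 2). Flavonol synthase draws the same intermediates away toward colourless flavonols. The third flavonoid 3'-monooxygenase-like gene, FvH4_1g08780, had an exon peak at 2.86 ± 0.101 (SD, n = 2), and the flavonoid 3',5'-hydroxylase-like FvH4_5g00570 an exon peak at 2.88 ± 0.0834 (SD, n = 2). Leucoanthocyanidin dioxygenase, FvH4_5g01170, which forms the coloured anthocyanidins after dihydroflavonol 4-reductase, had an intergenic shared peak at 2.98 ± 0.322 (SD, n = 2) that lay 2052 bp downstream of the gene start in replicate 1 and 2053 bp in replicate 2. The peak was 230 bp long in replicate 1 and 562 bp long in replicate 2, and the overlap covered 39.5% of the longer. The promoter peak of FvH4_5g01170, 236 bp upstream at 2.55, was in replicate 2 alone, as were its intergenic peaks at 2.89 and 2.64. Of all replicate 2 peaks in promoters within 1 kb, 62.1% overlapped a replicate 1 peak. The anthocyanidin reductase-like FvH4_7g16130, named after an enzyme that diverts anthocyanidins to tannin precursors, had a peak downstream of the gene at 2.96 ± 0.140 (SD, n = 2).

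**Figure D4:**
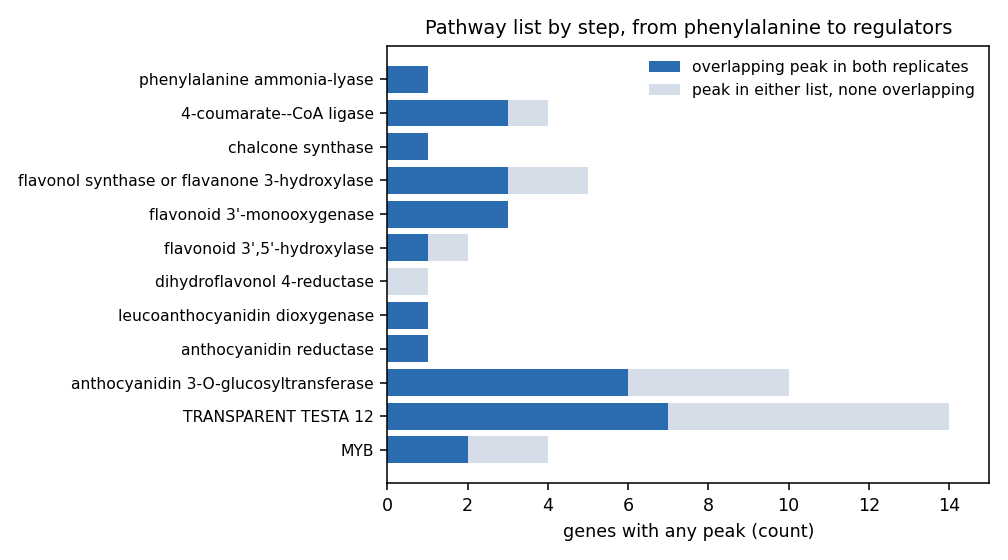
Number of genes with any peak (horizontal axis) at each step of the pathway list, the 5 genes included, with genes that have overlapping peaks in both IP replicates in dark blue and the rest in light blue. Overlapping peaks were found for 6 of 10 glucosyltransferases and 2 of 4 MYB genes, and for the dihydroflavonol 4-reductase step 0 of 1. Among all genes with any peak the share was 58.6%.

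Of 10 genes described as anthocyanidin 3-O-glucosyltransferases, 6 had shared peaks. By the promoter definition used here, FvH4_6g39310 alone had one in the promoter of both replicates. The others were FvH4_6g39311, FvH4_6g47620 with an intergenic peak at 3.98 ± 0.393 (SD, n = 2) and a 3' UTR peak at 3.53 ± 0.307 (SD, n = 2), FvH4_1g13970 with an exon peak at 3.44 ± 0.367 (SD, n = 2) and an intergenic peak at 3.23 ± 0.490 (SD, n = 2), FvH4_2g02610 at 3.06 ± 0.431 (SD, n = 2) and FvH4_3g38400 at 2.89 ± 0.0890 (SD, n = 2). The peak at the start of FvH4_6g39311 lay 21 bp downstream of the start in replicate 1 and 26 bp upstream in replicate 2. It therefore counted as a promoter peak in replicate 2 alone. FvH4_7g33840, described as anthocyanidin 3-O-glucosyltransferase 2 without the word like, had a single exon peak of 2.38 in replicate 2 alone. Of 14 TRANSPARENT TESTA 12 genes, 7 had shared peaks, against 58.6% of all genes with any peak. Beside those with promoter peaks these were FvH4_7g30080 at 3.32 ± 0.00315 (SD, n = 2), FvH4_3g02250 at 2.83 ± 0.358 (SD, n = 2), FvH4_7g15820, FvH4_1g20090 and FvH4_2g14370, the last 3 between 2.67 and 2.77. The FvH4_2g14370 peak lay in an exon of another gene, FvH4_2g14361.

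Of the 4 MYB genes of the list, 2 had shared peaks and MYB10-2 was not among them. FvH4_5g34660 (MYB114-like) had 3 shared peaks, in exon 1 of 4 at 3.83 ± 0.0498 (SD, n = 2) and in intergenic positions upstream at 3.27 ± 0.735 (SD, n = 2) and 3.22 ± 0.103 (SD, n = 2). The shared peak of FvH4_6g01170 (MYB90-like) lay 41 bp upstream of the gene start in replicate 1 and 44 bp upstream in replicate 2. FvH4_1g22020, also described as MYB114-like, had no shared peak either. It had a single intergenic peak, 6024 bp downstream of the gene start at 2.79, in replicate 1 alone.

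By position class and mean fold enrichment, the listed genes most like the 5 were FvH4_6g37810 and FvH4_7g30023, whose promoter peaks differed by 0.041 and 0.09 in mean fold enrichment from that of FvH4_6g39310, and FvH4_7g33990, whose intron peak at 2.53 differed by 0.103 from that assigned to FvH4_2g10240. For FvH4_7g30023 the likeness lies in the mean alone. The FvH4_6g39310 peak was at 3.62 in replicate 1 and 2.88 in replicate 2, against 2.58 and 3.74 for that of FvH4_7g30023. Each likeness rests on the same 2 replicate lists. Positions throughout are in the coordinates of the peak lists, and no source used here names the genome build.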

How the data were processed

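FvSEP3 binding was measured in 2 IP replicates with 1 input library, for which no peak list was used here. The submitters' processing notes name BWA and MACS2 for alignment and peak calling. Their versions and settings, and the genome build, are not given in the sources used here. Each replicate has a list of its own, per the file headers, and a merged list gave the authors' means over both replicates, of which 1 column, the mean −log10 q, was not used. Each peak carried the −log10 p-value and −log10 q-value of the peak caller and a fold enrichment over background, a ratio, as deposited by the authors. These values were used to describe, rank and filter peaks within a list. Fold enrichments of overlapping peaks were also set side by side, subtracted and averaged between the replicate lists, whose depths are unknown. The authors' deposited annotation supplied the gene, the position class and the distance from the gene start. The merged list measured distance from the peak midpoint in 100% of 2165 neighbouring peak pairs. The replicate lists measured it from another point inside the peak, which was the midpoint in 1.66% of 8728 peaks. Strand and gene start of a gene were read from 2 or more of its peaks.

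Calculations used Python 3.11.15 and pandas 2.3.3. Peaks of the replicates that overlapped by at least 1 bp counted as shared, and a gene had a shared peak if both were assigned to it. The overlap code was tested on simulated intervals and found the same number of shared replicate 1 peaks, 13597, as bedtools 2.31.1. A mean ± SD describes the 2 deposited values. No test was made, since peak lists hold no value where no peak was called. The 5 genes and the pathway list were chosen with earlier results of these data known. Named genes were the 5, other listed genes with a shared peak or with the description of one of the 5, neighbours that hold a peak, and the 3 most alike listed genes; FvH4_6g45510, FvH4_7g33840, FvH4_1g22020 and the remaining single-replicate peaks were named after their values were seen. Protein identifiers of 4 of the 5 genes matched the reference table of assembly FraVesHawaii_1.0, which was not used for positions. Alternatives were other overlaps, stricter peaks, each replicate alone, the merged list, other promoters and another placement of peaks in genes.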

Additional observations from a re-analysis of the deposited data

How the results depend on the processing

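The count of 3 of the 5 genes with overlapping peaks in both replicates stayed at 3 with overlap of 50% of both peaks, with midpoints within 100 bp, in the merged list and with peaks placed in the gene whose exon or intron they lie in, an alternative chosen after seeing the data. Under that placement the shared peaks numbered 3 instead of 4. Among all genes with any peak the share was 54.1% with 50% overlap and 51.9% by midpoints. It was 58.3% in the merged list and 58.4% with that placement. Of the pathway list with the 5 genes, 25 (53.2%) had a shared peak with 50% overlap and 24 (51.1%) by midpoints. With that placement 27 (57.4%) did. The list thus stood slightly below all genes with any peak in these settings, unlike in the main setting. With 50% overlap FvH4_3g02250, FvH4_4g24170, FvH4_5g00570 and FvH4_5g01170 lost their shared peak. By midpoints these genes and FvH4_2g10241 did. Stricter peaks ended the results for the 5 genes, and the counts fell over all genes with any peak as well. At a −log10 q of at least 10, and likewise at or above the median fold enrichment, 0 of the 5 genes, 0 promoters and 0 peaks remained, and the pathway list with the 5 genes held 11 and 12 genes with a shared peak, against 29 of 47 in the main setting. These are 23.4% and 25.5% of the list, against 61.7% in the main setting. Over all genes with any peak the shares were 26.1% and 27.3%, against 58.6%. A shared promoter peak was kept by 987 and 1026 of all 18238 genes with any peak, against 2436 in the main setting. With either replicate left out, the 5 genes with a peak ranged from 3 to 5, those with a promoter peak from 2 to 3, their peaks from 4 to 7 and the listed genes from 36 to 41. The number with a shared promoter peak was 1 with a promoter of 1 kb, as the flavonoid 3'-monooxygenase-like peak lies beyond it, and 2 with 3 kb or with 500 bp of the gene added. The share of all genes with any peak was not counted for these promoters, so these numbers have no background beside them. Leaving out the TRANSPARENT TESTA 12 genes, also chosen after seeing the data, left 22 of 33. Mean fold enrichment of the 4 shared peaks ranged from 2.57 to 3.62 over single replicates, and ranking by −log10 p moved none of the 4 by more than the spread between replicates. The alternative that places peaks by gene coordinates was not run, as the files used here give no gene ends. No paired analysis was possible because there was 1 input library for 2 IP replicates and no peak list was used for it. Depth is unknown, so it cannot be said whether a peak absent from replicate 1 was below its detection limit.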
